A study of Rattus norvegicus with 12 samples.

Results

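The choroid at postnatal day 17 (P17) was sampled for small RNA in 2 of the 12 libraries of the series, 1 from rat pups with oxygen-induced retinopathy (OIR) and 1 from control pups (CTL). Both were chosen by their labels for tissue, age and arm, and all miRNA, piRNA and tRNA entries of both were used. The OIR library held a pool of 5 choroids from Sprague Dawley pups kept from birth in oxygen that cycled between 50% and 10% every 24 hours, moved to room air at P14 and collected after 3 days there, although the label still calls the arm hyperoxic. The CTL library held a pool of 5 choroids from Sprague Dawley pups of the same age kept in room air throughout. Sprague Dawley is an albino strain, and the only treatment was the change of oxygen. With 1 pool per arm there is no replicate, so that every difference below compares 2 libraries and no test of the condition was possible.

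The choroid is the vascular layer behind the retina and feeds the photoreceptors through the pigment epithelium. In the rat OIR model the retinal vessels first degenerate in cycling oxygen and then grow abnormally once the pups are back in room air. This sample is from that second phase, in which the study describes vessel loss that persists in the choroid. miRNAs are short RNAs cut from the 2 arms of a hairpin precursor, called 5p and 3p, and they lower the output of messenger RNAs that match their seed, bases 2 to 8. One arm is usually kept and the other, the minor arm, is mostly lost. Many miRNAs mark a cell type, such as miR-126a for endothelium, miR-204 and miR-211 for pigment epithelium, and miR-1, miR-133 and miR-206 for striated muscle.

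Mature sequences of miRNAs that the results below turn on are given first, from RefSeq on the build GRCr8, with the seed in capitals. Of the 725 miRNAs listed in either library, 655 had a sequence there. The let-7 family was lower in the OIR choroid in its 5p arms, and its 9 members share 1 seed:
let-7a-5p: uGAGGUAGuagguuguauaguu
let-7b-5p: uGAGGUAGuagguugugugguu
let-7c-5p: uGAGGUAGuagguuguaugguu
let-7d-5p: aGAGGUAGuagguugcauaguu
let-7e-5p: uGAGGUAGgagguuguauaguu
let-7f-5p: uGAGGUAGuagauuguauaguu
let-7g-5p: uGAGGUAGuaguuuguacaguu
let-7i-5p: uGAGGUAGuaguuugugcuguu
miR-98-5p: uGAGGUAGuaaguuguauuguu

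The muscle miRNAs of the miR-1 seed were also lower, and the miR-29 seed, whose members repress collagen and other matrix messages, was higher:
miR-1-3p: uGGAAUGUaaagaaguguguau
miR-1b: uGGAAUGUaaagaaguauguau
miR-206-3p: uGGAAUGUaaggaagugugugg
miR-29a-3p: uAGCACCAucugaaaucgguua
miR-29b-3p: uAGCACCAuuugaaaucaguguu
miR-29c-3p: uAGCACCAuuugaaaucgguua

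Also shown are the hypoxia-induced miR-210-3p and miR-6328, which lie at the ends of the range of ratios between 100 and 1000 RPM, and both arms of the endothelial miR-126a (inside the endothelial gene Egfl7), whose 3p arm ranked first in both libraries:
miR-210-3p: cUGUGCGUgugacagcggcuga
miR-126a-3p: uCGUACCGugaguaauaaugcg
miR-126a-5p: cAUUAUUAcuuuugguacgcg
miR-6328: aGGCCUGCucugagcccccgc

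Levels are UMIs per 1000000 miRNA UMIs (RPM). A UMI, a unique molecular identifier, is a random tag that counts each captured molecule once. The miRNA UMIs came to 10124189 in the OIR choroid and 14228453 in the CTL choroid, within the 6994293 to 14228453 of the 12 libraries. Reads too short to use took 20.1% of all reads in the OIR library and 12.5% in the CTL library, and reads with a defective UMI took 3.36% in OIR and 1.68% in CTL. Over the 12 libraries the ranges were 9.22% to 28.8% and 1.68% to 8.34%, and the part of these reads in the results was not tested. The files list a feature from 10 UMIs upward, which is 0.988 RPM in the OIR and 0.703 RPM in the CTL library. A feature listed in only 1 of them was set to 10 UMIs in the other, so that its ratio is a bound. Each OIR to CTL ratio is followed by its 95% interval from the UMIs, which covers counting error only. A miRNA was called higher with a ratio above 1.2 and lower with a ratio below 0.8, where the interval left out 1. Only miRNAs that reached 20 UMIs in OIR or in CTL were compared.

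The 2 libraries were alike in their centre and spread evenly around it. Of 640 miRNAs compared, 159 were higher (24.8%) and 134 lower (20.9%) in the OIR choroid, and the median log2 ratio was 0.03. The middle 50% of the log2 ratios ran from -0.35 to 0.40. A ratio beyond 2-fold was less common, with 25 miRNAs above and 27 below. Scaled to total reads, which also counts the discarded short reads, 111 were higher and 166 lower, so the split between the directions rests on the scale while the order of the miRNAs does not. Among the 84 miRNAs with a mean of at least 1000 RPM, 31 were higher and 22 lower. Among the 115 between 100 and 1000 RPM, 36 were higher and 41 lower. Among the 441 below 100 RPM, 92 were higher and 71 lower, and the interval there was wide, with a median width of 1.01 on the log2 scale against 0.04 for the most abundant.

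**Figure D1:**
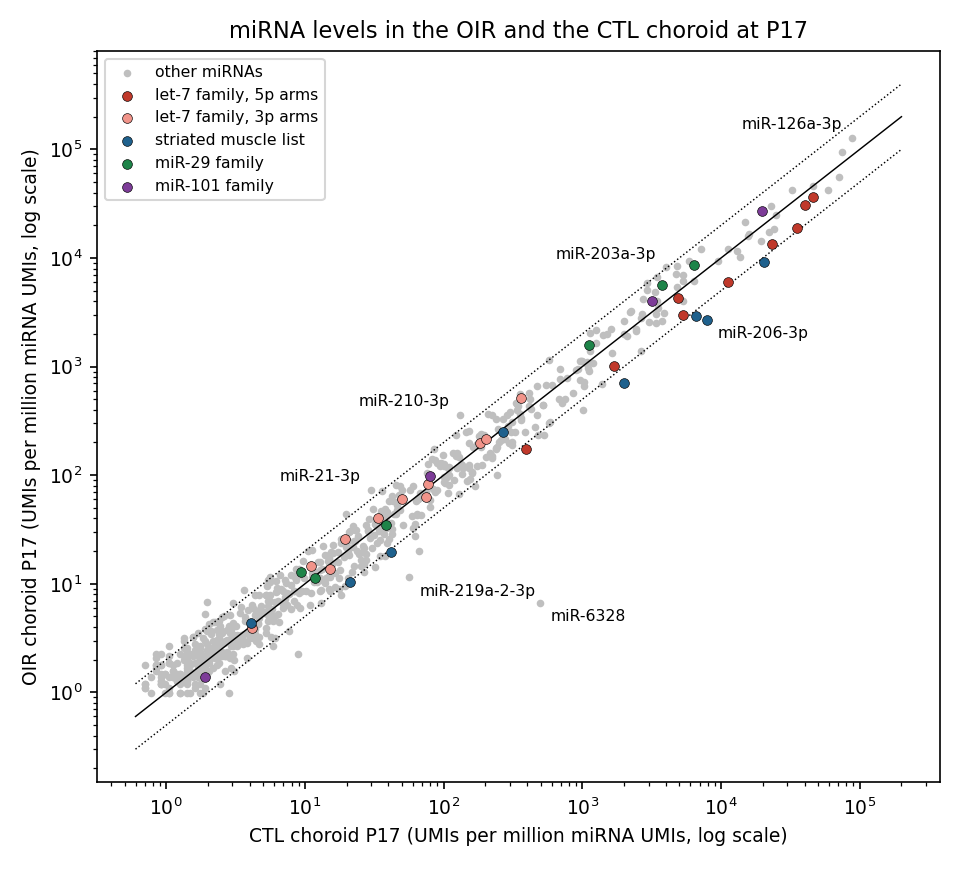
Level of each miRNA listed in both libraries, OIR choroid on the vertical axis and CTL choroid on the horizontal axis, both in UMIs per 1000000 miRNA UMIs on log scales. The solid line marks equal levels and the dotted lines a 2-fold difference. Most points lie near the solid line, the let-7 5p arms and most of the muscle list lie below it, and miR-6328 stands far below at 6.72 RPM in OIR and 496 RPM in CTL.

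A few miRNAs made up most of both pools. The 10 most abundant held 53.4% of the miRNA UMIs in the OIR choroid and 51.8% in the CTL choroid. miR-126a-3p, which sustains the response of endothelial cells to VEGF, ranked 1 in both, at 127802 RPM in OIR and 88124 RPM in CTL, a ratio of 1.45. miR-125b-5p ranked 2 in both, at 95388 RPM in OIR and 75134 RPM in CTL, a ratio of 1.27. The mesenchymal miR-199a-3p ranked 3 in both and was lower in OIR, at 55969 RPM against 71002 RPM in CTL. The widely expressed miR-16-5p had a ratio of 0.999 (0.995 to 1.00), with 46269 RPM in OIR and 46315 RPM in CTL. miR-101a-3p ranked 10 in the OIR choroid and 16 in the CTL choroid, with a ratio of 1.38 (1.37 to 1.38). let-7c-5p ranked 13 in OIR and 8 in CTL.

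The let-7 family holds cells in a differentiated state and is abundant in adult tissue. In the OIR choroid 8 of its 9 5p arms were called lower, beside 20.9% of all 640 miRNAs. Summed over the 9, the family took 114191 RPM in OIR and 168809 RPM in CTL, a ratio of 0.676 (0.675 to 0.678). The members ran from miR-98-5p, at 175 RPM in OIR and 395 RPM in CTL (0.444, 0.420 to 0.468), to let-7g-5p, at 4313 RPM in OIR and 4928 RPM in CTL (0.875, 0.865 to 0.886), which was not called. let-7a-5p, let-7b-5p, let-7c-5p, let-7d-5p and let-7e-5p had ratios from 0.535 to 0.593. let-7f-5p and let-7i-5p, both among the 10 most abundant in OIR, had 0.786 and 0.767. All 9 share the seed printed above and differ outside it, and their ratios spanned 0.444 to 0.875. Some members are nearly identical, such as let-7a-5p and let-7c-5p, so their reads may not be fully told apart.

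The 3p arms of the same let-7 hairpins did not share this. Of the 11 entries, 4 were higher and none was lower, beside 24.8% higher and 20.9% lower of all 640. The median log2 ratio of the 3p arms was 0.10, beside -0.80 for the 5p arms and 0.03 over all 640. Scaled to total reads, 2 of the 3p arms were higher, 1 (let-7b-3p) was lower, and their median was -0.03. let-7a-1-3p and let-7c-2-3p, which share 1 entry, stood at 517 RPM in OIR and 361 RPM in CTL, a ratio of 1.43 (1.38 to 1.49). let-7d-3p and let-7i-3p had 1.07 each, and let-7b-3p had the lowest ratio of these arms, 0.840 (0.760 to 0.928). Summed, the 3p arms came to 1231 RPM in OIR and 1031 RPM in CTL. In the other choroid pairs the summed 5p arms stood at 126695 RPM in OIR and 123184 RPM in CTL at P7 and at 123137 RPM in OIR and 160141 RPM in CTL at P14. In the retina they stood at 87028 RPM in OIR and 108688 RPM in CTL at P7, at 71175 RPM in OIR and 104680 RPM in CTL at P14, and at 82926 RPM in OIR and 98145 RPM in CTL at P17, so the sum was lower in the OIR library in all pairs but the P7 choroid.

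miRNAs of striated muscle had the lowest ratios among the miRNAs above 1000 RPM. Of the 8 entries on the list 6 were called lower and none higher, beside 20.9% lower and 24.8% higher of all 640. The median log2 ratio of the list was -1.13, beside 0.03 over all 640. miR-206-3p, which is confined to skeletal muscle, had 2703 RPM in OIR and 7893 RPM in CTL, a ratio of 0.342 (0.338 to 0.347). The shared entry of miR-133a-3p and miR-133b-3p had 713 RPM in OIR and 1984 RPM in CTL (0.359). miR-1-3p and miR-1b had ratios of 0.444 and 0.449, and since they share all but 1 base their reads may not be fully told apart. miR-208b-3p, inside the slow myosin gene Myh7, had 10.4 RPM in OIR and 21.1 RPM in CTL (0.492, 0.390 to 0.616). Against these, miR-499-5p, inside the slow myosin gene Myh7b, had 250.4 RPM in OIR and 268.4 RPM in CTL (0.933), and the minor arm miR-206-5p 1.07 on few UMIs (0.704 to 1.61). The list summed to 15784 RPM in OIR and 37219 RPM in CTL. In the other choroid pairs it stood at 37153 RPM in OIR and 48170 RPM in CTL at P14 and at 26810 RPM in OIR and 18478 RPM in CTL at P7, so the P17 OIR library held the lowest level of the 6 choroid libraries. How much muscle tissue each pool carried was not tested. In pooled tissue, fewer cells of a type and less of the RNA per cell cannot be told apart, here and in all results below.

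Vascular and stromal miRNAs differed in both directions. The 2 arms of miR-126a were both higher, with 42357 RPM in OIR and 32230 RPM in CTL for miR-126a-5p, while miR-139-5p, miR-221-3p and miR-222-3p, which are also found in endothelium, were called lower. miR-221-3p had 181 RPM in OIR and 241 RPM in CTL. The ratio of miR-139-5p was 0.678 and that of miR-222-3p 0.794, close to the threshold of 0.8. On reads, 2 of these 5 endothelial entries were higher and 2 lower, against 2 and 3 on UMIs. The smooth muscle pair miR-143 and miR-145, cut from 1 transcript, differed between its main products, with miR-143-3p at 41983 RPM in OIR and 58682 RPM in CTL (0.715, 0.713 to 0.718) and miR-145-5p at 2013 RPM in OIR and 1499 RPM in CTL (1.34, 1.32 to 1.37). The mesenchymal miR-140-3p had a ratio of 1.47 (1.45 to 1.49), and miR-214-3p, which is cut from the same transcript as miR-199a, had 0.679 (0.605 to 0.761). In all, the mesenchymal and mural list counted 4 higher and 3 lower of 10, beside the 24.8% higher and 20.9% lower of all 640.

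**Figure D2:**
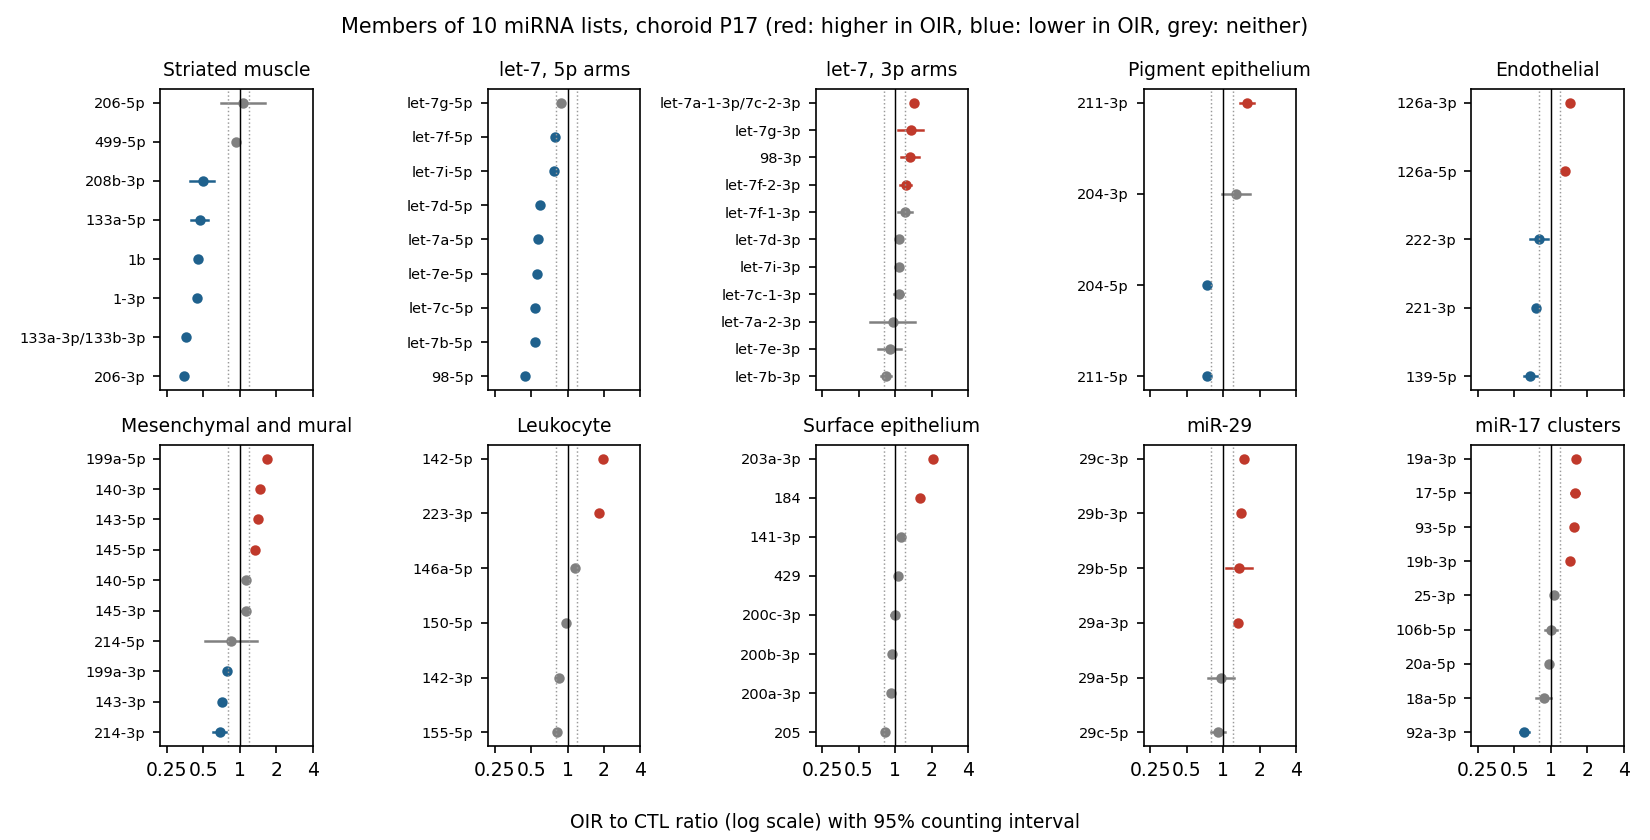
OIR to CTL ratio of each member of 10 miRNA lists on a log scale, with bars for the 95% counting interval, red for higher in OIR, blue for lower and grey for neither; solid and dotted lines mark ratios of 1, 0.8 and 1.2. Most of the muscle list and the let-7 5p arms lie to the left, no member of the let-7 3p arms or the miR-29 list is called lower, and the endothelial, mesenchymal and miR-17 lists hold members on both sides.

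Markers of other cells were mixed too. Of the pigment epithelium list, miR-204-5p (inside Trpm3) had 14202 RPM in OIR and 19300 RPM in CTL, and miR-211-5p (inside Trpm1, a gene of pigment cells and bipolar neurons) 2501 RPM in OIR and 3409 RPM in CTL, with ratios of 0.736 and 0.733. Both help keep the pigment epithelium differentiated. Of their minor arms, miR-211-3p was higher (1.56, 1.37 to 1.78). Of the leukocyte list, miR-223-3p, a miRNA of neutrophils and other myeloid cells, had 2039 RPM in OIR and 1129 RPM in CTL (1.81, 1.77 to 1.84), while the lymphoid miR-150-5p had 0.977 (0.933 to 1.02) and miR-155-5p 0.814. The surface epithelium list rested on 2 members: the epidermal miR-203a-3p, at 8278 RPM in OIR and 4035 RPM in CTL (2.05, 2.03 to 2.07), and miR-184, a miRNA of cornea and lens, at 9346 RPM in OIR and 5832 RPM in CTL (1.60). The other 6, the miR-200 family and miR-205 of epithelia, had ratios from 0.821 to 1.12 and none was called.

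miRNAs of photoreceptors and neurons were also present. The photoreceptor cluster of miR-182, miR-183 and miR-96 summed to 22028 RPM in OIR and 23924 RPM in CTL, against 347903 RPM in OIR and 336038 RPM in CTL in the retina at P17. Within it, miR-182 had a ratio of 1.05 (1.04 to 1.05), miR-183-5p 0.745 (0.736 to 0.754) and miR-96-5p 0.520 (0.510 to 0.531), although all 3 are cut from 1 cluster on chromosome 4. miR-124-3p, a defining miRNA of neurons, had 199 RPM in OIR and 294 RPM in CTL, and the neuronal list counted 3 higher and 5 lower of 13, beside 24.8% and 20.9% of all 640, with sums of 16372 RPM in OIR and 19469 RPM in CTL. How much retina each pool carried was not tested. miR-219a-2-3p, from a hairpin that drives oligodendrocyte maturation, had 116 UMIs in OIR and 807 UMIs in CTL (0.202, 0.165 to 0.246), and its partner arm miR-219a-5p 67.0 RPM in OIR and 129 RPM in CTL. miR-1298, which lies in the serotonin receptor gene Htr2c, had 23 UMIs in OIR and 126 UMIs in CTL, or 2.27 RPM in OIR and 8.86 RPM in CTL (0.257, 0.157 to 0.402).

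The hypoxia-induced miR-210-3p had the highest ratio of all miRNAs between 100 and 1000 RPM, with 362 RPM in OIR and 131 RPM in CTL (2.75, 2.60 to 2.91). miR-210-3p represses mitochondrial and cell cycle messages under low oxygen. In the choroid it stood at 401 RPM in OIR and 687 RPM in CTL at P7 and at 418 RPM in OIR and 211 RPM in CTL at P14, and in the P17 retina at 1288 RPM in OIR and 843 RPM in CTL. Its minor arm, miR-210-5p, had 22 UMIs in OIR and 38 in CTL, too few to place (0.814, 0.458 to 1.41).

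The 3 miR-29 3p arms were called higher, beside 24.8% of all 640. They had ratios of 1.34, 1.41 and 1.49, and together 15758 RPM in OIR and 11292 RPM in CTL. miR-29a-3p and miR-29c-3p are nearly identical, so their reads may not be fully told apart. Of the minor arms compared, miR-29b-5p was higher (1.35), and miR-29a-5p (0.959) and miR-29c-5p (0.911) were not called. The seed AGUGCAA, shared by miR-130a-3p, miR-130b-3p and miR-301b-3p, was called higher in all 3, beside 24.8% of all 640. miR-130a-3p, which represses antiangiogenic homeobox messages, had 5874 RPM in OIR and 2925 RPM in CTL (2.01, 1.98 to 2.03). miR-301a-3p, a further member whose mature sequence was not matched and which the seed groups leave out, had 2179 RPM in OIR and 1262 RPM in CTL (1.73, 1.69 to 1.76). miR-27a-3p and miR-27b-3p, of the proangiogenic miR-23, miR-27 and miR-24 clusters, had ratios of 1.94 and 1.44. From the same clusters, miR-23a-3p and miR-23b-3p had 0.992 and 0.991. Together the clusters counted 2 higher and 1 lower of 10, beside 24.8% higher and 20.9% lower of all 640. miR-322-5p, the rat homolog of miR-424, had 5067 RPM in OIR and 2930 RPM in CTL (1.73, 1.71 to 1.75). Its cluster counted 3 higher and 1 lower of 10, beside 24.8% and 20.9% of all 640, with a median log2 ratio of -0.06. The shared entry of miR-450a-5p and miR-450b-5p was lower (0.690, 0.644 to 0.740). The seed families were not uniform as a rule: of the 13 with at least 3 matched members compared, 3 had every member called the same way (the miR-1, miR-29 and miR-130 seeds) and 4 had members called both higher and lower. Whether this differs from what the 24.8% higher and 20.9% lower of all 640 would give was not tested.

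miRNAs cut from 1 cluster differed from each other in the same way. On chromosome 1, miR-99b-5p had a ratio of 1.38 (1.36 to 1.41), let-7e-5p 0.559 and miR-125a-5p 0.981, with their hairpins lying next to each other. In the miR-17 to miR-92a cluster, which drives proliferation, miR-17-5p had 1.58, miR-19a-3p 1.60 and miR-19b-3p 1.44, miR-18a-5p and miR-20a-5p had 0.869 and 0.958, and miR-92a-3p, an inhibitor of vessel growth, had 0.604 (0.558 to 0.654). Some of these are also made at a second locus. The miR-1 and miR-133a cluster on chromosome 18 was alike throughout, with all 4 of its entries lower and ratios from 0.359 to 0.465. The imprinted Dlk1-Dio3 cluster is active in embryonic and neural tissue. A list of 50 miRNAs from it counted 7 higher and 15 lower, beside 24.8% higher and 20.9% lower of all 640. Grouped by position on the plus strand instead, the 61 entries from Mir379 to Mir410 counted 9 higher and 15 lower. The 18 from Mir770 to Mir136 counted 3 higher and 6 lower, and none of the 4 from Mir341 to Mir370 was called. The lowest ratios on the list above 100 RPM included miR-431 at 101 RPM in OIR and 244 RPM in CTL (0.415, 0.386 to 0.445) and miR-381-3p at 307 RPM in OIR and 587 RPM in CTL (0.523).

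Both arms of a hairpin come from 1 precursor, and the ratio of their UMIs within a library does not depend on the scale. Of 111 hairpins with both arms in both libraries and at least 100 UMIs on the minor arm in 1, the minor arm gained on the major arm in 42 and lost in 37, by intervals that left out 1. In 28 and 16 of them the shift was over 1.5-fold. In 21 both arms were called in 1 direction, and in 19 they were called in opposite directions, 13 with the major arm lower and the minor arm higher. Over the 111, 36 major arms were higher and 40 lower, and 35 minor arms were higher and 21 lower, and whether the arms differ more often than these shares give was not tested.

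The arms of miR-199a and miR-21 are printed because each pair has different seeds and a large shift:
miR-199a-5p: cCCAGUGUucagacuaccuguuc
miR-199a-3p: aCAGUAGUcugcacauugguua
miR-21-5p: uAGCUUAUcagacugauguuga
miR-21-3p: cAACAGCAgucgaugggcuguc
The major arm of the injury-induced miR-21 was not called, at 11512 RPM in OIR and 13028 RPM in CTL (0.884), while miR-21-3p had 73.7 RPM in OIR and 30.2 RPM in CTL (2.44, 2.17 to 2.76), so the 3p to 5p ratio was 2.77 times that of CTL (2.46 to 3.12). In miR-199a the 5p arm had 12033 RPM in OIR and 7157 RPM in CTL (1.68) and the 3p arm was lower (0.788), a 3p to 5p change of 0.469 (0.465 to 0.473). The leukocyte hairpin miR-142 changed by 0.429 (0.415 to 0.443), with miR-142-5p at 1142 RPM in OIR and 578 RPM in CTL and miR-142-3p at 2552 RPM in OIR and 3009 RPM in CTL. miR-143 changed by 0.508 and miR-98 by 2.96 (2.48 to 3.54). miR-125b-2 changed by 0.353 (0.293 to 0.425), with miR-125b-2-3p at 14.4 RPM in OIR and 32.2 RPM in CTL. miR-125b-5p, let-7a-5p and miR-199a-3p are each made at more than 1 locus, so a part of their UMIs belongs to other hairpins. In the P14 choroid, miR-199a-5p stood at 5916 RPM in OIR and 7549 RPM in CTL and miR-21-3p at 63.8 RPM in OIR and 49.4 RPM in CTL.

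**Figure D3:**
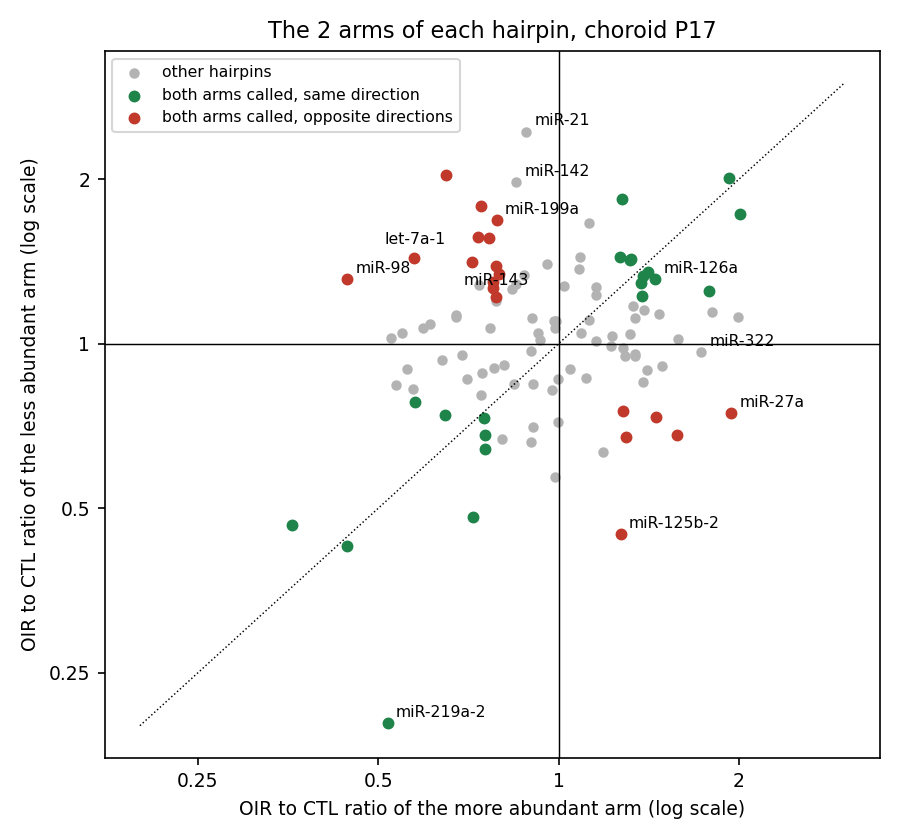
OIR to CTL ratio of the less abundant arm against that of the more abundant arm for 111 hairpins, on log scales; the dotted line marks equal ratios. The 19 hairpins in red have their arms called in opposite directions and the 21 in green in the same direction.

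Some low and middle entries lie on the opposite strand of a more abundant miRNA, and their values followed those of the partner. The RefSeq coordinates on GRCr8 gave 41 such pairs with at least 16 shared bases, of which 39 could be compared. Examples are printed that lie opposite a miRNA shown above. miR-3574 (plus strand) and miR-210-3p (minus strand) cover the same bases, chr1:205755946-205755967, and miR-3571 (plus strand, chr18:2160340-2160362) shares 21 bases with miR-1-3p (minus strand, chr18:2160339-2160360):
miR-3574: uCAGCCGCugucacacgcacag
miR-3571: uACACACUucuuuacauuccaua
miR-3574 had 44.3 RPM in OIR and 19.6 RPM in CTL (2.26, 1.94 to 2.64), beside 2.75 for miR-210-3p. miR-3571 had 394 RPM in OIR and 1005 RPM in CTL (0.392, 0.379 to 0.407), beside 0.444 for miR-1-3p. miR-3596a, opposite a let-7a gene, had 0.497 beside 0.574, and miR-133c, opposite miR-133a-3p, 0.300 beside 0.359. Over the 39, 32 entries had their ratio on the partner's side of 1 and none was called in the opposite direction. Among the 24 pairs with at least 100 UMIs, 24 lay on the same side of 1, 17 had the same call, and Spearman's rho over the 24, which share their libraries and loci, was 0.95. In these 24 the less abundant entry came to a median of 4.89% of its partner's UMIs in OIR and 4.97% in CTL. For the opposite-strand entry of miR-125b-5p, miR-3588, this share was 3.18% in OIR and 3.59% in CTL. Over the 12 libraries it ran from 2.92% to 3.59% for miR-3588 and from 10.9% to 15.6% for miR-3574. For miR-3571 it ran from 13.5% to 71.2%, so the share was not steady across the series in every pair. Whether the counting used strand is not given in the sources used here, so UMIs of opposite-strand entries and of their partners cannot be told apart. Such entries among the 10 highest and lowest ratios per RPM band (at least 100 UMIs) were miR-3571, miR-3574, miR-3596a, miR-3596c, miR-203b-5p, miR-3590-5p and miR-133c.

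**Figure D4:**
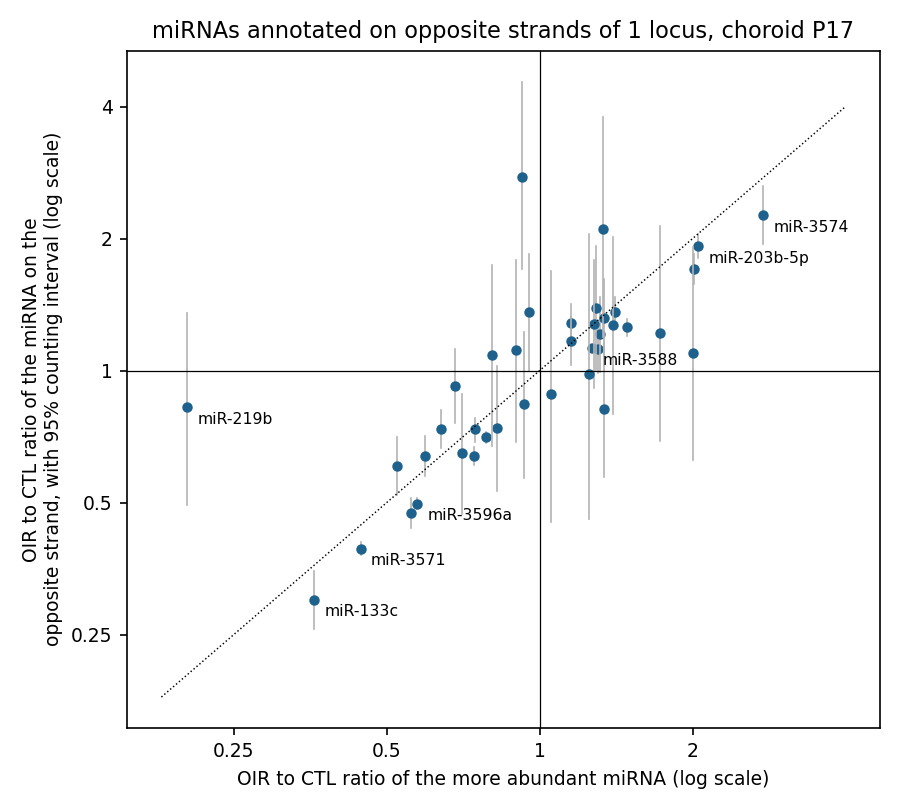
OIR to CTL ratio of 39 less abundant miRNAs (vertical, with 95% counting intervals) against that of the miRNA on the opposite strand of the same locus (horizontal), on log scales; the dotted line marks equal ratios. Points with narrow intervals lie along the line, and miR-219b, with 27 UMIs in OIR and 46 in CTL, lies off it.

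miR-6328 had the lowest ratio of the 640. It had 68 UMIs in OIR and 7064 UMIs in CTL, which is 6.72 RPM in OIR and 496 RPM in CTL, a ratio of 0.0135 (0.0105 to 0.0172). Its sequence, at chr20:2890159-2890179 on the plus strand, lies within the gene Ppp1r18. It was lower in the OIR library of each of the other pairs as well, with ratios of 0.299 and 0.790 in the choroid at P7 and P14 and of 0.164, 0.0214 and 0.0284 in the retina at P7, P14 and P17. Its level ran from 173 RPM to 875 RPM over the CTL libraries and from 4.93 RPM to 691 RPM over the OIR libraries, so the 2 arms overlapped. Neither its function nor the reason for the spread is given by these data.

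Further miRNAs below 1000 RPM differed in both directions. The highest ratio of the 640 was that of miR-218a-1-3p, a minor arm, at 3.46 from 69 UMIs in OIR and 28 UMIs in CTL. miR-350 had 176 RPM in OIR and 85.0 RPM in CTL (2.07, 1.92 to 2.23), miR-331-3p 71.9 RPM in OIR and 36.1 RPM in CTL (1.99), and the cartilage miRNA miR-455-3p 252 RPM in OIR and 144 RPM in CTL (1.75). miR-33-5p, which lies in a sterol regulator gene and represses cholesterol export, had 128 RPM in OIR and 77.4 RPM in CTL (1.65, 1.52 to 1.79). On the lower side, miR-135a-5p had 234 RPM in OIR and 529 RPM in CTL (0.442), miR-190b-5p 233 RPM in OIR and 477 RPM in CTL (0.488), and miR-34c-5p, a p53 target and a miRNA of ciliated cells, 27.4 RPM in OIR and 61.8 RPM in CTL (0.442, 0.385 to 0.507). The miR-181 family, active in immune and neural cells, had 3 of 4 members called lower, beside 20.9% of all 640. Their ratios ran from 0.617 to 0.752, and miR-181c-5p had 0.804. miRNAs listed in only 1 of the libraries were all close to the listing limit: 13 were listed in OIR alone, with at most 14 UMIs, and 27 in CTL alone, with at most 27 UMIs for miR-487b-5p. The depth of the CTL library was the larger, and no such miRNA can be called absent from the other.

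Of the miRNAs the study singles out in the P17 choroid, miR-126a-3p, miR-126a-5p, miR-101a-3p and miR-125b-5p were higher in OIR, let-7f-5p and let-7e-5p lower, and miR-125a-5p and let-7g-5p neither. Scaled to total reads, the ratio of miR-125b-5p was 1.16, below the threshold, and let-7g-5p passed as lower. miR-125a-5p, which shares its seed with miR-125b-5p, had 9365 RPM in OIR and 9549 RPM in CTL (0.981, 0.973 to 0.989).

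tRNAs, read as fragments in a small RNA library, were somewhat lower in OIR in total, with 324869 UMIs in OIR and 512966 UMIs in CTL, or 32088 RPM in OIR and 36052 RPM in CTL (0.890, 0.886 to 0.894). Of 251 entries compared, 20 were higher (7.97%) and 76 lower (30.3%). Entries of near-identical tRNA genes share reads, so sums by amino acid are the firmer values. Glycine tRNAs led, with 82.2% of the tRNA UMIs in OIR and 78.0% in CTL, and the GCC anticodon alone had 22324 RPM in OIR and 23097 RPM in CTL (0.967, 0.961 to 0.972). Valine tRNAs differed most among the abundant ones, at 1094 RPM in OIR and 3029 RPM in CTL (0.361, 0.354 to 0.369), in both the CAC (0.368) and the AAC anticodon (0.333). Aspartate tRNAs went the other way, at 1468 RPM in OIR and 912 RPM in CTL (1.61, 1.57 to 1.65). Glutamate was split by anticodon, with 0.507 for CTC and 0.926 for TTC, and lysine likewise, with 0.710 for CTT and 1.05 for TTT. The lowest ratio of an entry with at least 100 UMIs was that of an arginine tRNA of anticodon CCG, with 37 UMIs in OIR and 206 UMIs in CTL (0.252, 0.173 to 0.360).

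**Figure D5:**
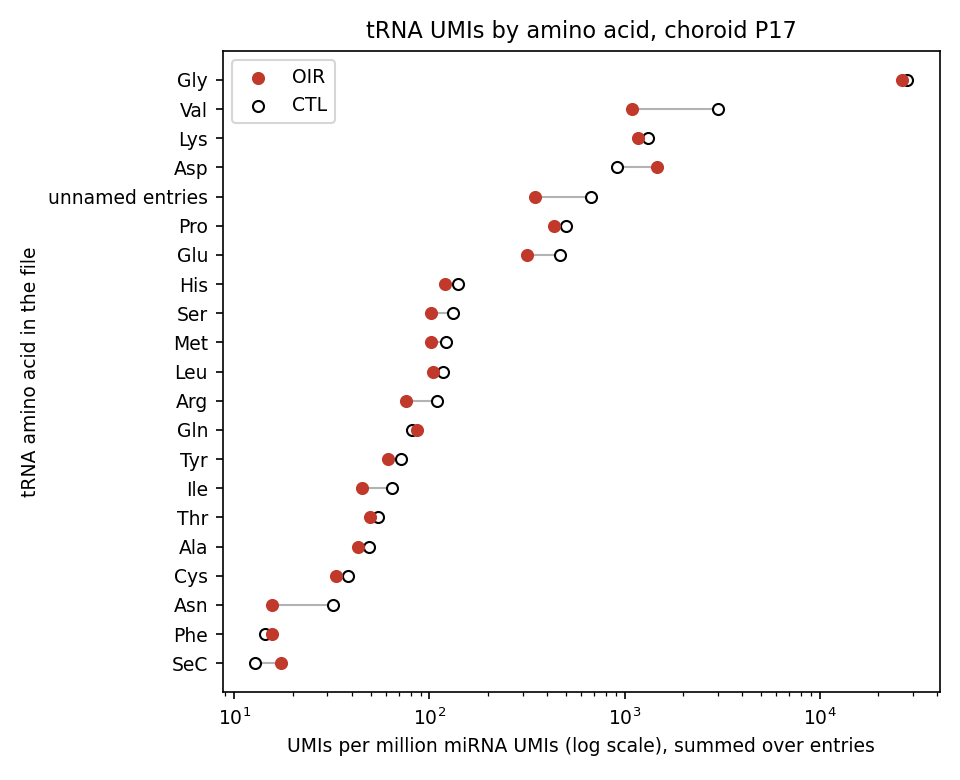
UMIs of tRNA entries per 1000000 miRNA UMIs, summed by amino acid, on a log scale; red points are the OIR choroid and open points the CTL choroid, and rows run from the most to the least abundant in CTL. Valine, asparagine and the unnamed entries lie lower in OIR, aspartate and the selenocysteine tRNA (SeC) higher.

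piRNAs guide the silencing of transposons in germ cells, and entries with such names in other tissues are often fragments of longer RNAs. They were few, with 20544 UMIs in OIR and 25847 UMIs in CTL, or 2029 RPM in OIR and 1817 RPM in CTL (1.12, 1.10 to 1.14). Of 65 compared, 24 were higher (36.9%) and 14 lower (21.5%). The most abundant, rno_piR_005595, had 241 RPM in OIR and 223 RPM in CTL (1.08, 1.02 to 1.14). rno_piR_000552 had 395 UMIs in OIR and 214 UMIs in CTL (2.59, 2.19 to 3.08), and rno_piR_005556 87.8 RPM in OIR and 40.9 RPM in CTL (2.15). rno_piR_033824 had 24 UMIs in OIR and 124 UMIs in CTL (0.272, 0.168 to 0.424), the lowest ratio of those with at least 100 UMIs.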

How the data were processed

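Of the 12 small RNA libraries, the 2 from P17 choroid are compared here. The labels name TRIzol and RNeasy extraction with the QIAseq miRNA kit, and the study's methods name miRNeasy and TruSeq Small RNA. The submitters' processing notes name bcl2fastq 2.20, cutadapt, Bowtie and the build Rnor_6.0. The counting tool, its parameters and its use of strand are not given in the sources used here. The values the authors deposited are raw counts of UMIs and of reads per feature, and counts of reads per RNA class. The lowest listed miRNA count was 10 UMIs in each of the 12 libraries.

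UMIs were divided by the miRNA UMIs of the library. Ratios of OIR to CTL carry an exact conditional (Clopper-Pearson) 95% interval. Counts simulated with counting error alone checked how it is computed, and could not check the spread between pools. With 1 pool per arm no p-value was computed and no paired analysis applied. Calls needed at least 20 UMIs in 1 library. The miRNAs, lists and bands were chosen with earlier results of these data known. Named miRNAs are the list members, the 10 most abundant, the 10 highest and lowest ratios in each of 3 bands of mean RPM (at least 1000, 100 to 1000, under 100), the 8 hairpins with the largest arm shift each way, and the miRNAs the study names for this tissue and age, together with entries on opposite strands, chosen after their values were seen. The text names a selection of them. Of the 222 names in 27 lists, 222 were listed in the pair. Sequences and coordinates are from RefSeq on GRCr8, matched by name for 582 of the 640 miRNAs compared. Clusters join hairpins within 10000 bases on GRCr8.

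Alternatives were reads, other denominators (all RNA classes, total reads, TMM of edgeR 4.0.16, size factors of DESeq2 1.42.0), other minimums and other thresholds. Computations ran in R 4.3.3 and in Python 3.11.15 (scipy 1.17.1, pandas 2.3.3, numpy 2.4.6, matplotlib 3.10.9).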

Additional observations from a re-analysis of the deposited data

Results flagged for a closer look

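Differences between this pair and the other pairs of the series were not tested, since each rests on 1 library per arm. The summed surface epithelium list was higher in the OIR choroid at P17 (1.48) and lower at P14 (0.773), and so was the sum of the miR-23, miR-27 and miR-24 clusters (1.38 at P17 and 0.718 at P14). The piRNA ratio was above 1 in the choroid at P17 (1.12), against 0.902 in the retina at P17 and 0.510 in the choroid at P14. The median log2 ratio of all miRNAs was 0.031 in the P17 choroid, -0.09 in the P17 retina and -0.44 in the P14 choroid. In the class of other RNAs, which no comparison above used, 1 of 22 entries compared was higher in the OIR choroid and none was lower. This unnamed entry had 59 UMIs in OIR and 43 UMIs in CTL (ratio 1.93, 1.28 to 2.93).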

How the results depend on the processing

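With 1 pooled library per arm, no replicate could be left out and no paired analysis was possible. A 2-fold threshold left 25 miRNAs higher and 27 lower, and asking the whole interval to pass the threshold left 105 higher and 100 lower. Under reads, all RNA classes, total reads, TMM or size factors as the denominator, each minimum and, for the lower side, 1/1.2, the counts stayed within 1.5 times those given, from 111 to 171 higher and from 125 to 166 lower. The median log2 ratio ran from -0.10 with total reads to 0.09 with no minimum, so its sign rests on the choice; total reads move every log2 ratio by -0.13. The tRNA ratio was 0.895 on reads, 0.813 with total reads, 0.858 with TMM and 0.850 with DESeq2 size factors. The piRNA ratio was 1.02 with total reads, 1.08 with TMM and 1.07 with size factors. Leaving out the entries that lie opposite a more abundant miRNA, a choice made after the data were seen, gave 148 higher and 123 lower. Leaving the muscle list and the let-7 family out of the denominator, also chosen then, gave 108 higher and 166 lower. No called value among the miRNAs, lists and hairpins rerun changed direction. A change of denominator could not have done this, because it moves all log2 ratios by the same amount, smaller than a call needs. Calls were lost, however. Scaled to total reads, the Dlk1-Dio3 list had 1 higher and 19 lower of 50, against 7 and 15. The miR-101 list then had 1 higher of 4, against 3. Of the named miRNAs' values under alternatives, 132 moved beyond their counting interval and 223 did not.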
